A study of Homo sapiens with 6 samples.

Results

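The genes described here are 54 genes that license, start and carry out DNA replication, chosen by name from the 61541 genes of the count table and matched to Ensembl gene identifiers by symbol. They were measured by RNA sequencing in cells labelled A498, an established human line of clear cell kidney cancer. Both groups carried a short hairpin RNA (shRNA): the 3 control libraries (shcontrol) a control hairpin and the 3 knockdown libraries (shRNF26) a hairpin against RNF26, a ubiquitin ligase of the endoplasmic reticulum membrane. The labels describe delivery to both groups only as transfection and infection, and do not say how many hairpins were used or whether each replicate was a culture of its own. The p-values therefore measure the spread between these libraries, which may be technical.

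Libraries held 16682871 to 18021718 gene counts each. The targeted gene RNF26 was counted 35331, 31901 and 31928 times in control and 1216, 1274 and 1175 times in knockdown libraries, which left 3.48% of the control level (log2 fold change -4.84, SE 0.040). Of a list of 24 kidney and kidney cancer markers, 18 averaged less than 1 CPM, the gene counts scaled to a common library size, among them PAX2, CA9 and CDH16. PAX8 was at 2.5 to 3.17 CPM in the control libraries. Of the rest, EPAS1 averaged 170 CPM, VIM 49.9, ANGPTL4 12, EGLN3 8.82 and LHX1 2.57 CPM in the control libraries. The 24 markers summed to 246 to 255 CPM in the control libraries and 230 to 250 CPM in the knockdown libraries. All 15 squamous epithelial markers were measured, and their summed level was 6950 to 7250 CPM in the control libraries and 4070 to 4260 CPM in the knockdown libraries. Whether the type of cell bears on the results below was not tested.

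In each cell cycle the origin recognition complex (ORC), CDC6 and CDT1 load the MCM2-7 helicase onto origins during G1 phase. Cyclin E with CDK2 and the kinase CDC7 with DBF4 then activate the helicase together with CDC45 and the GINS complex, and DNA polymerases alpha, delta and epsilon copy the strands behind it. Many of these genes are transcribed in late G1 and S phase under E2F transcription factors, so their transcripts are widely used as a mark of cells entering S phase. In bulk RNA, fewer cells in a phase and less RNA per cell cannot be told apart.

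The replication genes did not move together in the knockdown libraries. All 6 genes of the S-phase entry kinase and of licensing fell, 6 of 9 polymerase and primase genes rose, and most changes were small. All 54 passed the minimum of a mean of 1 CPM, with group means of 13.5 to 525 CPM. The edgeR quasi-likelihood test, with p-values adjusted over all 14766 tested genes and a threshold of 0.05, called 14 of them lower and 15 higher, and 25 did not pass. Over all tested genes, 22.6% were called lower and 18.9% higher, or 41.4% in either direction. Among tested genes with a mean of at least 10 CPM the share was 50.6%, which is close to the 29 of 54 replication genes called. The groups of libraries did not overlap for 12 of the genes called lower and 13 of those called higher, against 21.6% and 17.8% of all tested genes (39.5% in either direction). Only SLBP changed by at least 1.5-fold and passed the test, a change found for 8.85% of all tested genes. The median log2 fold change was 0.01 in the replication genes and 0.01 in all tested genes, and the median absolute value was 0.14 against 0.19. The summed level of the 54 genes was 6250 to 6390 CPM in the control libraries and 6200 to 6240 CPM in the knockdown libraries.

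**Figure D1:**
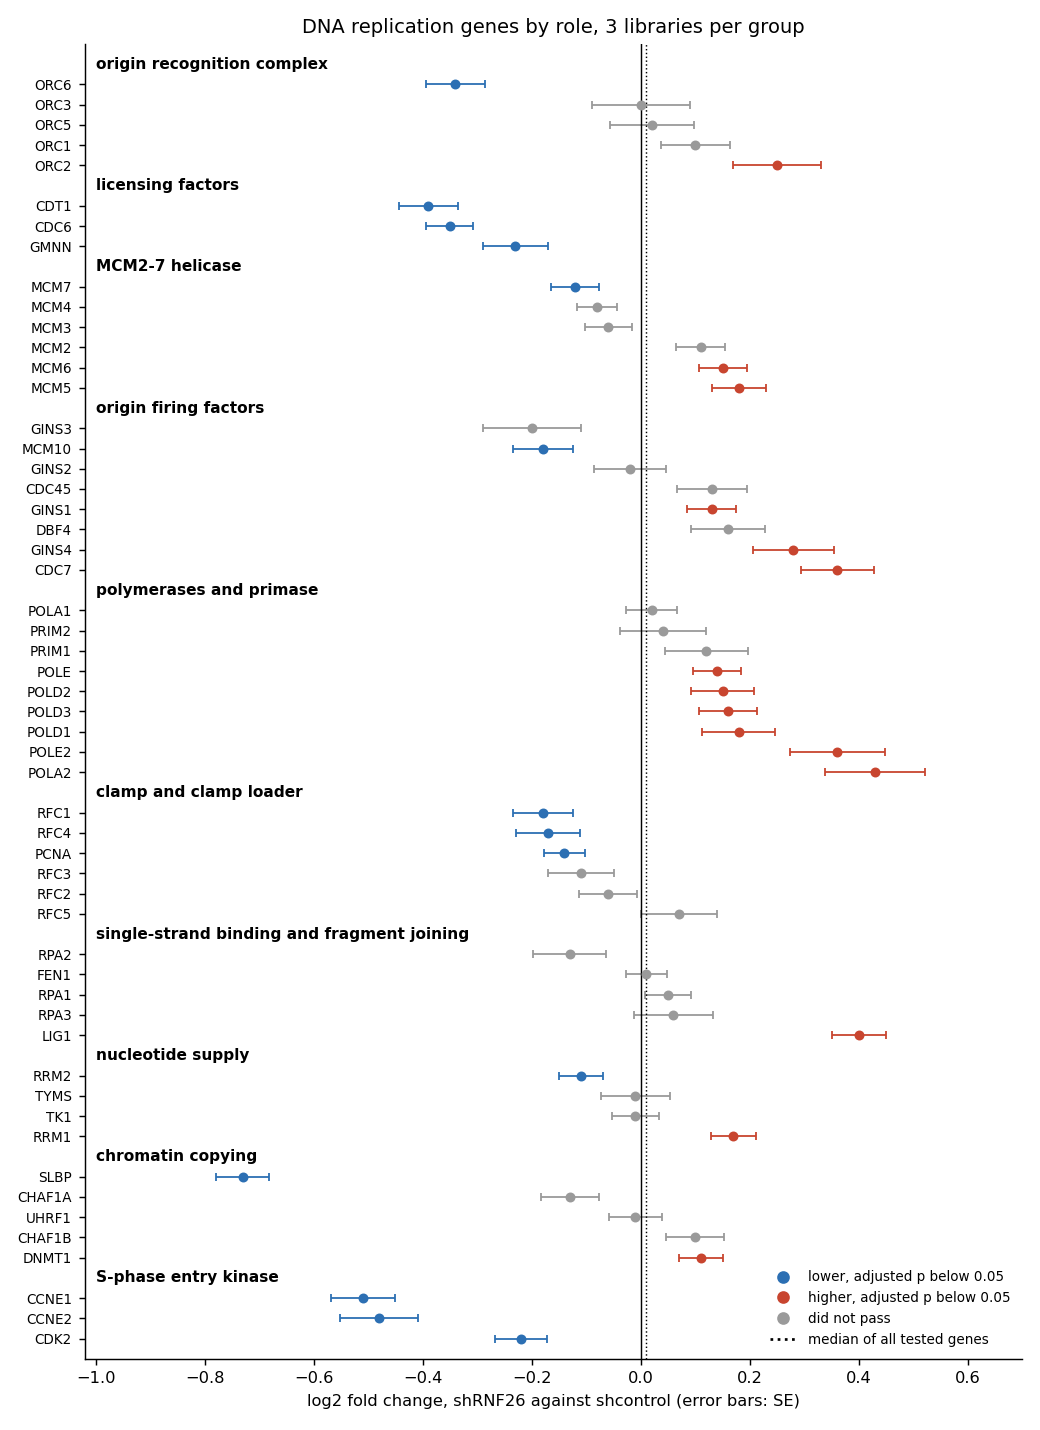
Fitted log2 fold change of each of the 54 replication genes in knockdown against control libraries (points; error bars are SE; n = 3 per group), grouped by role and colored by the edgeR call. All 3 cyclin E and CDK2 genes and all 3 licensing factors lie below 0, and all 9 polymerase and primase genes lie above 0.

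Levels are given below as CPM scaled by the trimmed mean of M values (TMM), a factor that corrects library sizes for composition. The choice of scaling matters at this size of change. TMM set the groups apart by 0.09 on the log2 scale relative to total counts, and when only library totals were used the median of all tested genes was 0.10. That scaling called 7 replication genes lower and 23 higher, against 15.4% and 30.1% of all tested genes (45.5% in either direction). Under all 5 scalings tried, 7 genes were called lower (SLBP, CCNE1, CCNE2, CDT1, CDC6, ORC6 and CDK2) and 15 were called higher. The other scalings left the median of all tested genes at 0.01, as with TMM, or raised it (0.06 with upper-quartile scaling). They could therefore take away falls but hardly rises, and that all 15 rises held does not make them firmer than the falls. How many of all tested genes were called under all 5 was not counted. The 7 other genes called lower with TMM (GMNN, MCM7, MCM10, PCNA, RFC1, RFC4 and RRM2) did not pass with total counts, where their log2 fold changes were -0.14 to -0.02, and all of them but GMNN were also lost with upper-quartile scaling. Total counts added 8 genes to those called higher: DBF4 (0.25), CDC45 (0.22), PRIM1 (0.21), MCM2 (0.20), ORC1 (0.19), CHAF1B (0.19), RPA1 (0.15) and FEN1 (0.10).

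**Figure D2:**
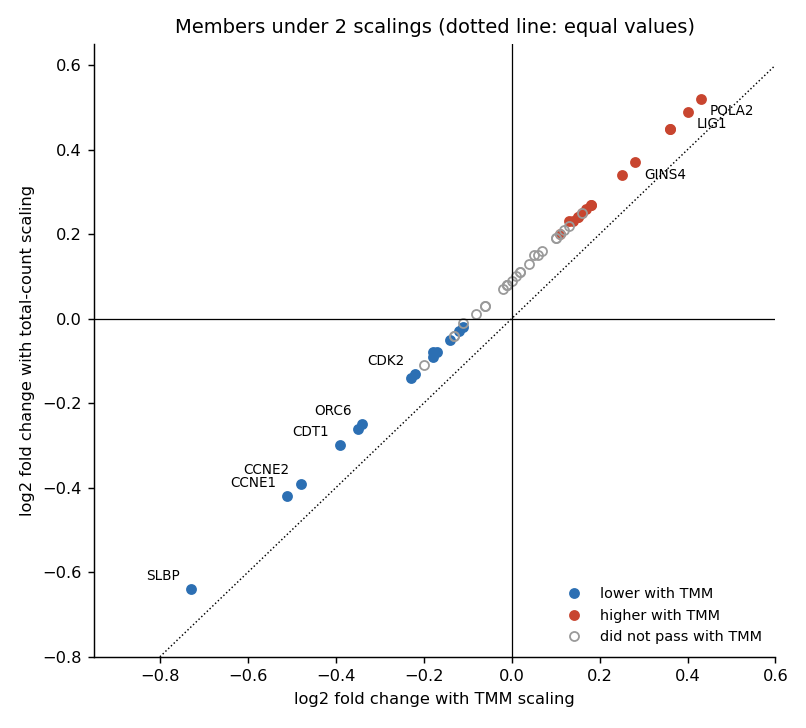
Log2 fold change of each replication gene with TMM scaling (horizontal axis) and with total-count scaling (vertical axis), colored by the call with TMM. Every point lies above the dotted line of equal values by about 0.09, and SLBP and the cyclin E genes stay far below 0 on both axes.

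Promoters were searched for E2F-type motifs. The 250 bases before the start are shown for the largest fall and the 2 largest rises among genes with 1 start and a match, because such motifs stood in genes of both directions. Capitals mark matches, on either strand, to 1 of 4 spellings, which are TTCCCGC with TTCGCGC, and TTGCCGC with TTGGCGC, as written or reversed and complemented. The sequences are RefSeq promoters of build GRCh38.p14, printed 5′ to 3′ along the gene: CDT1 at chr16:88803539-88803788 (plus strand), POLA2 at chr11:65261712-65261961 (plus strand) and LIG1 at chr19:48170345-48170594 (minus strand).
CDT1: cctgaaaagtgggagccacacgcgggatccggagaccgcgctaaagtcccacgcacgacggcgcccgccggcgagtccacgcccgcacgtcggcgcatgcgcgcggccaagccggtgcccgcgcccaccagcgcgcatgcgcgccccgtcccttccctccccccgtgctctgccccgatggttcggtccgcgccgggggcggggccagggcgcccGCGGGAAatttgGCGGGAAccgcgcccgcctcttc
POLA2: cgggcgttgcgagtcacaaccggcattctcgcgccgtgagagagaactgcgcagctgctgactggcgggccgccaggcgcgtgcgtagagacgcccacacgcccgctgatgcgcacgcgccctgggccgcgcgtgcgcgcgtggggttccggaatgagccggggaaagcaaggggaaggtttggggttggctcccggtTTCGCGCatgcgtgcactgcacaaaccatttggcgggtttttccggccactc
LIG1: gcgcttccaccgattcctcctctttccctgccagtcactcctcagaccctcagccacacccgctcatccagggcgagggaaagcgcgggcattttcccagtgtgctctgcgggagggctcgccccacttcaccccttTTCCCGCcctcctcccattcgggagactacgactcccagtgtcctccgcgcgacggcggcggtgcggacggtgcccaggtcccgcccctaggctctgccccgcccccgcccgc
CDT1 held 2 matches, which began 35 and 23 bases before the start, POLA2 held 1 at 52 bases and LIG1 held 1 at 113 bases. The promoter table matched 46 of the 54 genes, and 24 of these (52.2%) held at least 1 such motif, against 21.2% of the 10761 tested genes in the table. The share was 6 of 12 in genes called lower, 6 of 12 in genes called higher and 12 of 22 in genes that did not pass. A CCAAT box (CCAAT, either strand) was found in 26 of 46, or 56.5%, against 41.2% of tested genes. The cell cycle element CHR (TTTGAA or TTCGAA, either strand), known from promoters of mitotic genes, was found in MCM6 and RRM1, 2 of 46 or 4.35%, against 13.2%. A match is a description of the letters, not evidence of binding.

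The genes of the S-phase entry kinase fell, all 3 of 3, where 22.6% of all tested genes were called lower. CCNE1, which encodes cyclin E1, was at 92.7, 90.2 and 85.6 CPM in the control libraries and at 59.2, 68.5 and 60.1 CPM in the knockdown libraries (log2 change -0.51, SE 0.059, edgeR adjusted p = 1.15e-06). CCNE2, which encodes cyclin E2, was at 65.9, 73.7 and 83.6 CPM against 55.0, 50.6 and 54.6 CPM (-0.48, SE 0.072). CDK2, their kinase partner, was at 90.8, 91.3 and 88.2 CPM against 75.5, 79.2 and 77.6 CPM, a smaller fall of 1.16-fold (SE 0.048 on the log2 scale). For each of the 3 genes every knockdown library lay below every control library. CCNE2 and CDK2 overlap exons of coding genes on the opposite strand (INTS8 and PMEL), and whether the counting used strand was not stated in the sources.

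The licensing factors also fell, all 3 of 3, against 22.6% of all tested genes called lower. CDT1, which brings the helicase to origins, was at 86.7, 79.8 and 82.3 CPM in the control libraries and at 60.9, 65.9 and 63.1 CPM in the knockdown libraries, or 1.31-fold lower (log2 fold change -0.39, SE 0.054, edgeR adjusted p = 9.79e-06). CDC6, the ATPase that loads the helicase with ORC, was at 181, 172 and 183 CPM against 137, 139 and 144 CPM (-0.35, SE 0.043, edgeR adjusted p = 2.74e-06). GMNN, which encodes geminin, the inhibitor of CDT1, was at 45.8, 46.2 and 48.6 CPM against 39.3, 40.3 and 40.4 CPM (-0.23, SE 0.059). So the loader and its inhibitor were both lower, with no overlap between groups, but the call of GMNN was lost with total-count scaling (-0.14, edgeR adjusted p = 0.065). The count ratio of CDT1 to GMNN within a library, which needs no scaling between libraries, was 1.89, 1.73 and 1.69 in the control and 1.55, 1.64 and 1.56 in the knockdown libraries.

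The origin recognition complex, the platform on which loading takes place, was split, with 1 of 5 genes called lower and 1 higher. That share, 40%, was close to the 41.4% of all tested genes called in either direction. ORC6 was at 70.4, 75.4 and 77.4 CPM in the control libraries and at 58.6, 58.9 and 58.2 CPM in the knockdown libraries, or 1.27-fold lower (log2 fold change -0.34, SE 0.054). ORC2 rose from 27.5, 33.5 and 34.6 CPM to 37.8, 36.0 and 40.0 CPM (0.25, SE 0.081). Control replicate 1 was the lowest of the ORC2 values, and the call was lost without it (0.15) and without knockdown replicate 3 (0.21). ORC1, the largest ORC subunit, was at 36.7, 36.1 and 35.6 CPM against 37.7, 40.6 and 37.7 CPM and did not pass (0.10, SE 0.063). ORC5 was at 26.8, 26.7 and 30.1 CPM against 26.6, 29.7 and 28.5 CPM (0.02, SE 0.077), and ORC3 was at 21.6, 24.1 and 25.8 CPM against 23.4, 21.7 and 26.5 CPM (0.00, SE 0.090).

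The helicase itself showed small changes in both directions among its subunits. MCM5 was at 110, 102 and 99.2 CPM in the control libraries and at 117, 121 and 114 CPM in the knockdown libraries (log2 change 0.18, SE 0.049). MCM6 was at 104, 109 and 109 CPM against 119, 118 and 120 CPM (0.15, SE 0.044). For both of these genes all knockdown libraries lay above all control libraries. MCM7 was called lower, from 551, 530 and 494 CPM to 493, 497 and 457 CPM (-0.12, SE 0.044), but its groups overlapped. Its call was lost without control replicate 1 (-0.09) or 2 (-0.12) and without knockdown replicate 1 (-0.14) or 3 (-0.08). The call was also lost with total-count scaling (-0.03) and upper-quartile scaling (-0.07). MCM2 was at 176, 161 and 169 CPM against 176, 184 and 186 CPM and did not pass (0.11, SE 0.045, edgeR adjusted p = 0.054). It was called higher in 7 of the 16 alternatives, among them total counts (0.20) and the fit without control replicate 1 (0.14). MCM4 (-0.08, SE 0.037) and MCM3 (-0.06, SE 0.043) did not pass either. MCM2 and MCM7 overlap exons of coding genes on the opposite strand (TPRA1 and AP4M1).

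Of the 8 factors that fire the loaded origin, 3 rose, 1 fell and 4 did not pass. The share called, 50%, was close to the 50.6% of tested genes with a mean of at least 10 CPM (41.4% of all tested genes). CDC7, the catalytic subunit of the kinase that phosphorylates the MCM helicase, was at 32.5, 37.2 and 38.4 CPM in the control libraries and at 47.0, 45.5 and 46.3 CPM in the knockdown libraries, or 1.29-fold higher (log2 fold change 0.36, SE 0.067, edgeR adjusted p = 0.000266). Its activator DBF4 was at 36.1, 40.2 and 39.0 CPM against 42.9, 40.3 and 46.0 CPM (0.16, SE 0.068), which did not pass but was called higher with total counts (0.25) and without knockdown replicate 2 (0.21). GINS4 was at 28.0, 26.2 and 28.7 CPM against 31.0, 35.1 and 34.7 CPM (0.28, SE 0.074). The helicase kinase gene and GINS4 thus lay higher in every knockdown library. GINS1 rose less, from 112, 111 and 110 CPM to 127, 118 and 120 CPM (0.13, SE 0.045). It no longer passed without control replicate 2 (0.13) or 3 (0.12), nor without knockdown replicate 1 (0.11). The other GINS subunits, GINS2 (-0.02, SE 0.066) and GINS3 (-0.20, SE 0.090), did not pass, although GINS3 was called lower without control replicate 1 (-0.30). MCM10, a scaffold for helicase activation, was at 64.7, 67.6 and 66.9 CPM against 56.6, 57.9 and 61.8 CPM (-0.18, SE 0.055), and did not pass without control replicate 2 (-0.17) or without knockdown replicate 1 (-0.15). Its call was also lost with total-count scaling (-0.09) and upper-quartile scaling (-0.12). CDC45, the partner of GINS on the active helicase, did not pass (0.13, SE 0.064), but did with total counts (0.22).

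Of the 9 polymerase and primase genes among the 54, 6 rose, 0 fell and 3 did not pass. Over all tested genes 18.9% were called higher and 22.6% lower. Among those with a mean of at least 10 CPM, 50.6% were called in either direction. The small subunits POLE3 (-0.30), POLE4 (-0.29) and POLD4 (-0.48) of polymerases epsilon and delta, which stand in the list of other replication genes, were called lower. POLA2, the accessory subunit of polymerase alpha, was at 13.8, 14.1 and 12.8 CPM in the control libraries and at 17.1, 19.1 and 18.8 CPM in the knockdown libraries, or 1.35-fold higher (log2 fold change 0.43, SE 0.092, edgeR adjusted p = 0.000911). POLE2, an accessory subunit of polymerase epsilon, was at 16.7, 18.4 and 18.3 CPM against 22.6, 21.2 and 25 CPM (0.36, SE 0.087). In the control libraries these accessory subunits had the lowest means of the 54 genes in CPM, and they had the largest rises of the role. The catalytic subunit POLE was at 240, 224 and 214 CPM against 247, 247 and 253 CPM (0.14, SE 0.044). Among subunits of polymerase delta, the lagging-strand polymerase, POLD1 (0.18, SE 0.067), POLD2 (0.15, SE 0.057) and POLD3 (0.16, SE 0.053) were called higher, and POLD4, which is not among the 54, was called lower. POLD3 was at 59.3, 63.3 and 64.2 CPM against 68.5, 69.8 and 70.0 CPM, without overlap. POLD1, the catalytic subunit, was at 99.7, 91.9 and 81.9 CPM against 104, 112 and 94.7 CPM, and its groups overlapped, as did those of POLD2.

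These smaller polymerase calls were lost in several fits that left out 1 library, with log2 fold changes there of 0.09 to 0.19. Those fits also called fewer of all tested genes, 33.8% to 39.3% against 41.4% with all 6 libraries. Without control replicate 2 or 3, the calls of POLE (0.13 and 0.09), POLD1 (0.19 and 0.11) and POLD2 (0.13 and 0.09) were lost. Without knockdown replicate 1 they were lost too (0.15, 0.18 and 0.17), and POLE was also lost without knockdown replicate 3 (0.13). POLD1 (0.12) and POLD2 (0.10) were lost without knockdown replicate 2. POLD3 was lost without control replicate 1 (0.12) or knockdown replicate 2 or 3 (0.15 each). The calls of POLA2 and POLE2 held in each of these fits. The primase subunits PRIM1 (0.12, SE 0.076) and PRIM2 (0.04, SE 0.079), which make the RNA primer, and the catalytic subunit POLA1 (0.02, SE 0.047) did not pass.

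Of the genes for the sliding clamp and its loader, replication factor C (RFC), 3 of 6 were called lower, 0 higher and 3 did not pass. Of all tested genes 41.4% were called in either direction, and 50.6% of those with a mean of at least 10 CPM. PCNA, the clamp that holds polymerases on DNA, was at 312, 323 and 316 CPM in the control libraries and at 292, 282 and 287 CPM in the knockdown libraries, or 1.10-fold lower (log2 fold change -0.14, SE 0.038). The groups did not overlap, but the call was lost with total-count scaling (-0.05) and upper-quartile scaling (-0.09). RFC1, the large subunit of the loader, was at 90.4, 94.9 and 99.5 CPM against 80.5, 81.2 and 90.4 CPM (-0.18, SE 0.055), and was lost without control replicate 3 (-0.14) or knockdown replicate 1 (-0.14) or 2 (-0.15). RFC4 was at 47.6, 46.8 and 46.3 CPM against 40.9, 42.8 and 41.7 CPM (-0.17, SE 0.058). Its call was lost in DESeq2 (-0.16), without a filter on low counts (-0.17), and without control replicate 1 (-0.16) or 2 (-0.17) or knockdown replicate 1 (-0.15) or 3 (-0.16). With total counts (-0.08 each) and upper-quartile scaling (-0.12 and -0.11) the calls of RFC1 and RFC4 were lost too. RFC3 (-0.11), RFC2 (-0.06) and RFC5 (0.07) did not pass, with SE of 0.053 to 0.070. RFC4 and RFC5 overlap exons of coding genes on the opposite strand (EIF4A2 and WSB2), and PCNA has named pseudogenes.

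Among the 5 genes that protect single strands and join Okazaki fragments, only LIG1 passed the test (20%, against 41.4% of all tested genes). LIG1, the ligase that seals the fragments, was at 59.9, 62.0 and 62.9 CPM in the control libraries and at 81.2, 82.6 and 80.7 CPM in the knockdown libraries, or 1.32-fold higher (log2 fold change 0.40, SE 0.050, edgeR adjusted p = 2.97e-06). It was the rise with the smallest p of the 54 genes, and its libraries differed little within a group. FEN1, the flap endonuclease that acts just before the ligase, was at 252, 247 and 247 CPM against 247, 251 and 252 CPM (0.01, SE 0.038). The single-strand binding protein RPA has subunits encoded by RPA1 (0.05, SE 0.043), RPA2 (-0.13, SE 0.067) and RPA3 (0.06, SE 0.073). RPA2 was at 50, 48.8 and 49.5 CPM against 41.0, 45.2 and 49.8 CPM, and was called lower without knockdown replicate 3 (-0.20). RPA1 was at 136, 135 and 130 CPM against 136, 140 and 140 CPM. With total counts RPA1 (0.15) and FEN1 (0.10) were called higher.

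Nucleotide supply was divided between the subunits of ribonucleotide reductase, which makes deoxynucleotides. RRM1, the large subunit, was at 259, 275 and 262 CPM in the control libraries and at 302, 285 and 307 CPM in the knockdown libraries (log2 change 0.17, SE 0.042). RRM2, the small subunit, whose level is known to peak in S phase, was at 280, 289 and 297 CPM against 269, 258 and 275 CPM (-0.11, SE 0.040). Neither gene's groups overlapped. The call of RRM2 was lost with total counts (-0.02), with upper-quartile scaling (-0.06) and without a filter on low counts (-0.11). It was also lost without control replicate 2 (-0.11) or 3 (-0.10) or knockdown replicate 1 (-0.11) or 2 (-0.09). Within a library the count ratio of RRM2 to RRM1 was 1.08, 1.05 and 1.13 in the control and 0.891, 0.908 and 0.894 in the knockdown libraries. TK1, the thymidine kinase of the salvage route, was at 185, 175 and 174 CPM against 180, 179 and 170 CPM (-0.01, SE 0.043). TYMS, thymidylate synthase, also did not pass (-0.01, SE 0.063), and overlaps ENOSF1 on the opposite strand.

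The largest change of all 54 genes was in SLBP, which was grouped here with the genes that copy chromatin behind the fork but acts on histone transcripts. SLBP binds the stem-loop that ends replication-dependent histone transcripts. It was at 109, 116 and 117 CPM in the control libraries and at 68.0, 68.4 and 69.7 CPM in the knockdown libraries, or 1.66-fold lower (log2 fold change -0.73, SE 0.049, edgeR adjusted p = 5.23e-10), and was called in every alternative fit (-0.77 to -0.64). DNMT1, the maintenance DNA methyltransferase, was at 408, 404 and 374 CPM against 427, 433 and 424 CPM (0.11, SE 0.040), which did not pass without control replicate 3 (0.07), nor without knockdown replicate 1 (0.12) or 2 (0.10). UHRF1, which guides DNMT1 to newly copied DNA, did not pass (-0.01, SE 0.049). The chromatin assembly factor subunits CHAF1A (-0.13, SE 0.053) and CHAF1B (0.10, SE 0.053) did not pass. CHAF1A was at 156, 157 and 139 CPM against 140, 144 and 129 CPM, and was called lower without control replicate 3 (-0.18) or knockdown replicate 2 (-0.16).

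**Figure D3:**
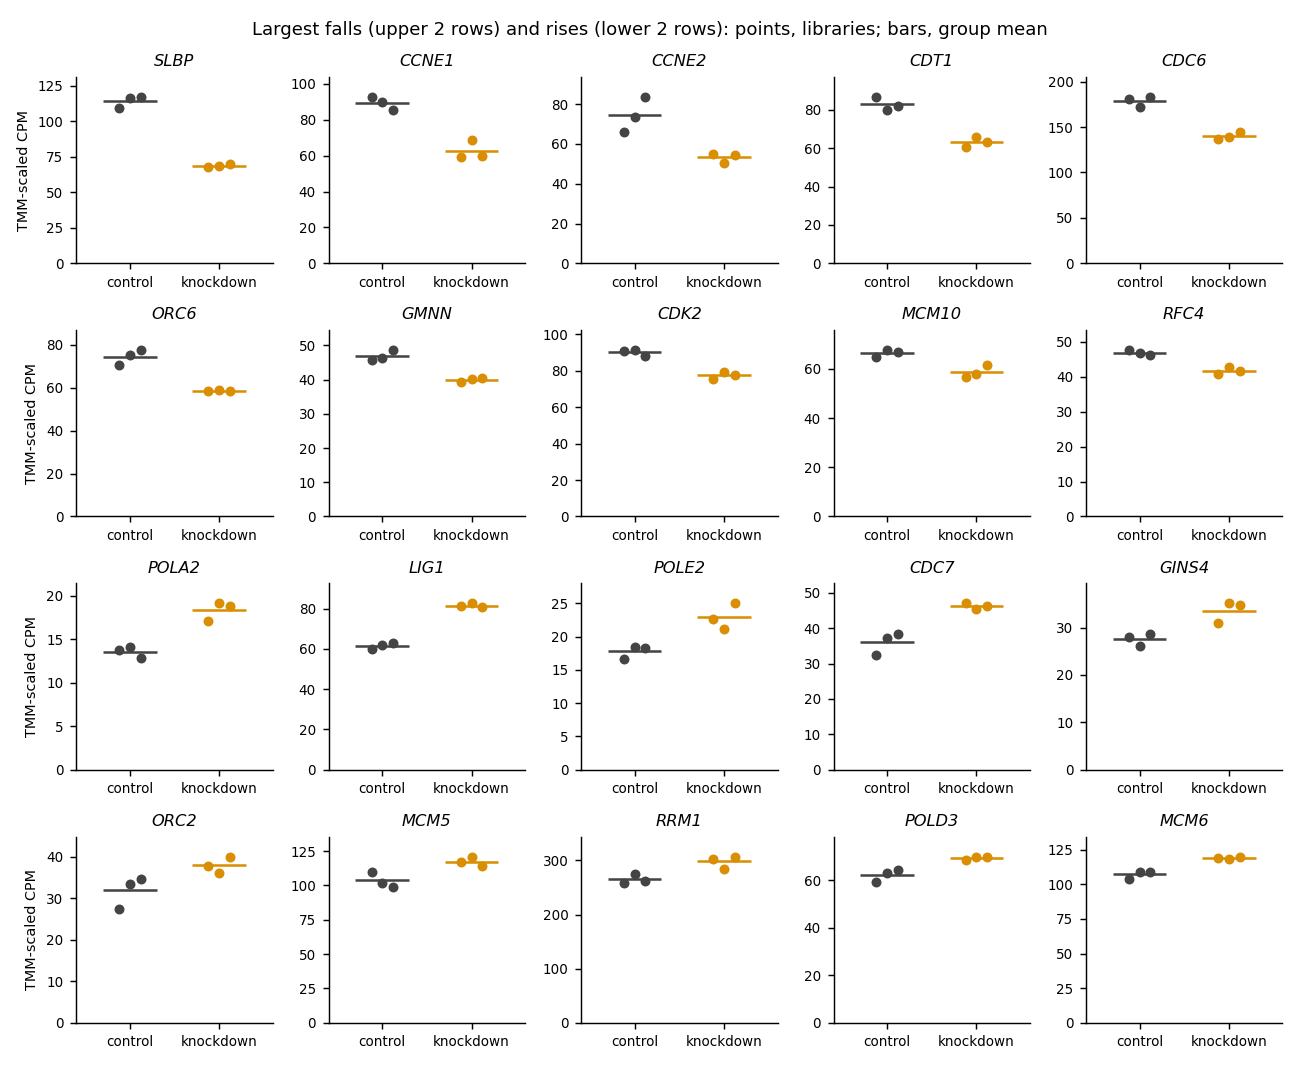
TMM-scaled CPM of the 10 largest falls and 10 largest rises whose groups did not overlap, 1 point per library and a bar at the mean of the 3 libraries, with axes from 0. The groups stand apart in all 20 panels because the genes were chosen that way. SLBP shows the largest fold, and the smallest rise shown, MCM6, differs by 1.11-fold.

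Ratios between partners within a library were compared for 8 pairs. For 6 of them the groups did not overlap, which gave the smallest p that an exact two-sided permutation test of 3 against 3 allows (p = 0.1, and 0.133 adjusted over the pairs by the Benjamini-Hochberg method), so none passed the threshold. On the log2 scale the ratio in knockdown libraries was lower for MCM10 to MCM2 (-0.29), RRM2 to RRM1 (-0.28), CDT1 to GMNN (-0.16) and UHRF1 to DNMT1 (-0.12). It was higher for POLE2 to POLE (0.22) and CDC7 to DBF4 (0.20). The ratio of CCNE2 to CCNE1 differed by 0.04 (exact permutation p = 0.9), with SDs of 0.23 and 0.18 within the groups. For ORC1 to ORC2 the difference was -0.16 (exact permutation p = 0.4).

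Other replication genes, from a list of 47 that shares no gene with the 54, were mixed too: 14 were called lower, 11 higher and 22 did not pass, with a median log2 fold change of 0.01. The share called was 53.2%, against 41.4% of all tested genes and 50.6% of those with a mean of at least 10 CPM. CDC25A, the phosphatase that activates cyclin E with CDK2, fell from 90.7 ± 1.96 to 53.4 ± 1.41 CPM (mean ± SD, n = 3 per group; -0.76, SE 0.051). POLD4, the small subunit of polymerase delta, went against the larger delta subunits (-0.48, SE 0.16). TICRR, which helps load CDC45, rose from 80.0 ± 3.63 to 107 ± 1.41 CPM (0.43, SE 0.049), and TIMELESS, a fork protection factor, from 85.2 ± 5.88 to 116 ± 2.90 CPM (0.45, SE 0.052). With total counts 8 of the 47 were called lower and 19 higher, against 15.4% and 30.1% of all tested genes.

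Among 11 tested G1 cyclins, kinases and inhibitors, 6 were called lower and 1 higher (median -0.28), led by the kinase inhibitor CDKN2B (-1.36, SE 0.085), cyclin D1 (CCND1, -1.17, SE 0.037) and the inhibitors CDKN1A (-0.86, SE 0.040) and CDKN2D (-0.86, SE 0.092). The gene called higher was the inhibitor CDKN2C (0.65, SE 0.12). The cyclins and kinases called in this list (CCND1, CDK6 and CCND3) were lower, and the inhibitors were called in both directions. In the E2F and RB family 4 of 13 were called lower, namely E2F7 (-0.37, SE 0.044), E2F1 (-0.26, SE 0.068), TFDP1 (-0.18, SE 0.035) and E2F3 (-0.17, SE 0.037), and 3 higher, namely E2F2 (0.90, SE 0.17), RBL2 (0.39, SE 0.059) and TFDP2 (0.16, SE 0.053). CDKN2C, TFDP1, E2F3 and TFDP2 were named after their values were seen. All 19 G2 and mitosis genes were called higher, with a median of 0.32. Their summed level was 3310 to 3450 CPM in the control libraries and 4280 to 4500 CPM in the knockdown libraries, and TOP2A rose from 755 ± 28.9 to 1080 ± 19.0 CPM (0.52, SE 0.036). Of all tested genes 22.6% were called lower and 18.9% higher. The differences between these lists were not tested.

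**Figure D4:**
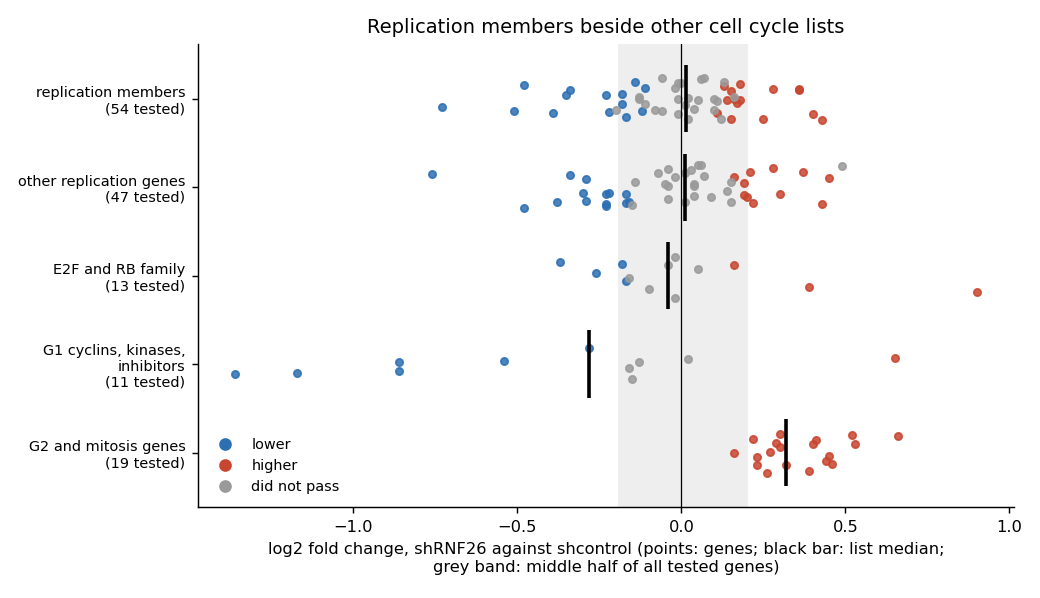
Log2 fold change of single genes (points, colored by call) in the 54 replication genes, the other replication genes and the cell cycle lists, with the list median as a black bar and the middle 50% of all tested genes (-0.19 to 0.20) as a grey band. The replication genes spread around 0, while the 19 G2 and mitosis genes all lie above 0.

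Levels between genes are compared here as CPM per kilobase of exon, with exon lengths from GENCODE 29. MCM7 was the highest helicase subunit in the control libraries at 120 ± 6.57 CPM per kilobase, followed by MCM4 (67.4 ± 0.745), MCM3 (48.3 ± 2.09) and MCM2 (34.4 ± 1.53). MCM6 and MCM5 were the lowest, and their order depended on which isoforms were counted in the length, as did the fold between the highest and the lowest subunit (8.47 with all isoforms, 5.00 with the basic set). Among the GINS genes GINS1 was the highest at 27.3 ± 0.246 CPM per kilobase, and in polymerase alpha-primase POLA2 was the lowest at 2.37 ± 0.119 in the control and 3.20 ± 0.188 in the knockdown libraries. ORC6 was the highest of the 5 ORC genes among the 54 (ORC4 has no value per kilobase here) at 17.3 ± 0.837 CPM per kilobase in the control libraries, and although it fell, it was still the highest in the knockdown libraries at 13.6 ± 0.0815. MCM7, GINS1 and ORC6 as highest and POLA2 as lowest held with both exon sets.

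**Figure D5:**
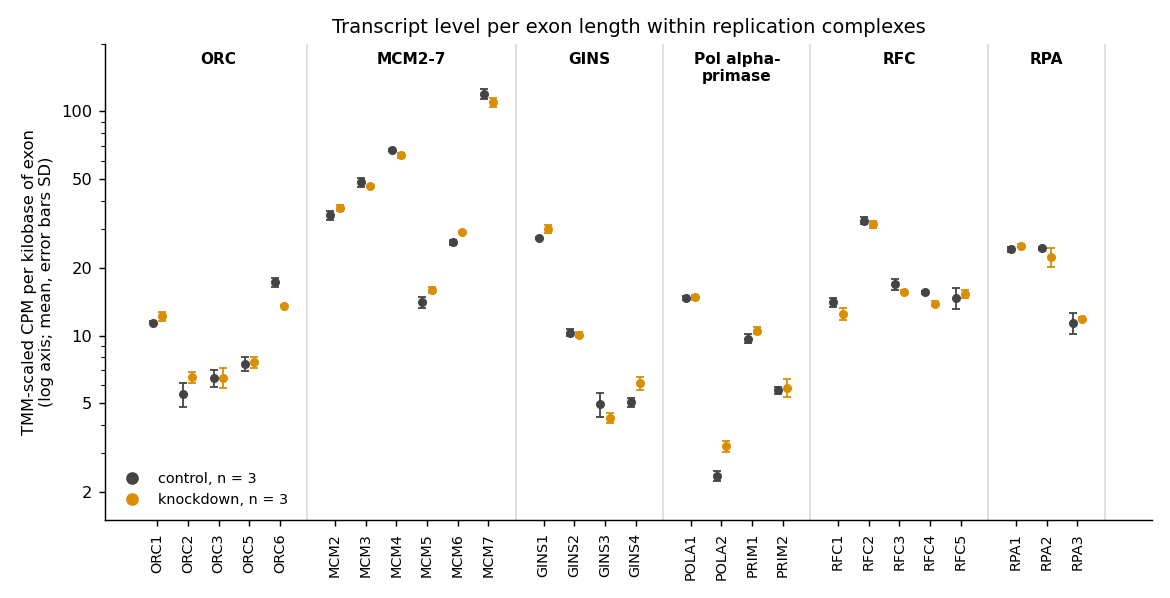
TMM-scaled CPM per kilobase of exon (log axis) for subunits of 6 replication complexes in control (black) and knockdown (orange) libraries, as mean and SD of 3 libraries. MCM7 stands at 120 and MCM5 at 14.1 in the control libraries, while the shift between the groups is at most that of POLA2 (1.35-fold).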

How the data were processed

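RNA from 3 control and 3 knockdown libraries was sequenced after a strand-directional library kit, per the labels' protocols. The deposited table, although named for FPKM, holds raw gene counts (whole numbers with totals that differ between libraries), mapped to build hg19 per the submitters' processing notes. No aligner, counter, annotation release or strand setting was stated in the sources. Two-sided edgeR 4.0.16 quasi-likelihood tests in R 4.3.3 used TMM factors, all 6 libraries, group as the only term and genes with a mean of at least 1 CPM; p-values were Benjamini-Hochberg adjusted over 14766 genes, and SE was obtained by dividing the size of the log2 change by the root of the F statistic. Blank rows (2, holding 0% of counts) were left out. Symbols came from a gene name table that covers 61369 IDs, and exon overlaps and lengths from GENCODE 29 (another build), without coordinates. Of the 54 genes, 19 overlap exons on the opposite strand, 8 on the same strand, and 9 have named pseudogenes (DBF4, POLD2, PCNA, RFC3, RFC5, RPA2, FEN1, RRM2 and TYMS), so their counts are uncertain. Replicates differed by more than sampling noise (chi-square per degree of freedom 2.15 to 4.28 within groups). Genes with values per library were the 10 largest falls and rises among called genes without overlap and up to 2 more per role by smallest p, with ORC3 and FEN1 added after their values were seen; other genes named outside the 54 came from the 4 called genes per list with the largest change, and the kidney markers, POLE3, POLE4, CCND3, CDK6 and those said to be so were named after their values were seen. The genes and lists were chosen with earlier results of these data known. Alternatives were DESeq2 1.42.0, limma 3.58.1 on log2(CPM + 1), 3 other scalings, 3 filters, robust dispersion, the replicate number as a block and leaving out each library.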

Additional observations from a re-analysis of the deposited data

How the results depend on the processing

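Total-count scaling moved the replication genes most, to 7 called lower, 23 higher and a median of 0.10. The median of all tested genes moved to 0.10 too, with 15.4% of them called lower and 30.1% (4449) higher. Among the other replication genes 8 were called lower and 19 higher. Upper-quartile scaling gave 8 lower, 20 higher and a median of 0.07 (0.06 in all tested genes), with 18.2% of all tested genes called lower and 25.3% higher. These scalings set the groups apart differently by construction. Leaving out 1 library at a time gave 9 to 13 replication genes called lower, 10 to 14 higher and a median of 0.00 to 0.03. The 9 came without knockdown replicate 1. Fewer of all tested genes were called in these fits too. They called 18.9% to 21.9% lower and 14.8% to 17.4% higher, against 22.6% and 18.9% with all libraries. The log2 ratio of CCNE2 to CCNE1 went from -0.07 to 0.16 across these fits, and turned negative without control replicate 1 or knockdown replicate 1. With 300 bases instead of 250, 73.9% of promoters of the replication genes and 24.9% of those of tested genes held an E2F-type match; the longer window takes in bases after the start. Deviations of same-numbered libraries from their group means correlated at 0.01, -0.03 and 0.09, and those of differently numbered ones at -0.12 to 0.12. No pairing by number was evident, but 3 libraries per group cannot exclude it. With the replicate number as a block 15 replication genes were called lower and 17 higher, against 23.6% and 19.9% of all tested genes. Over all alternatives 7 falls (SLBP, CCNE1, CCNE2, CDT1, CDC6, ORC6 and CDK2) and 8 rises (POLA2, LIG1, POLE2, CDC7, GINS4, MCM5, RRM1 and MCM6) stayed called in the same direction. The share of all tested genes that did so was not counted, so these numbers cannot be set against it. The exon set for lengths was an alternative added after seeing the data. The SE of single genes, 0.037 to 0.092 on the log2 scale, limits how small a change could be called, and the lowest group mean was 13.5 CPM.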
